A study of Mus musculus with 18 samples.

Results

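Genes named Tex (testis expressed, followed by a number) were followed through whole mouse embryos labelled as knockouts of a DNA methyltransferase. The set was defined by name alone: all rows whose symbol starts with Tex and a digit, which gave 38 of the 31053 mouse genes in the files. These genes share a naming history and not a sequence family, a pathway or a chromosome. In 7 WT embryos 25 of the 38 were silent, 5 were expressed at a mean above 5 CPM and in every cell class (wide) and 8 lay between. The genes that rose in the knockouts all came from the silent and the intermediate groups. None of the 5 widely expressed genes passed the test in any knockout. Over all genes tested 8.19%, 1.83% and 0.196% were called higher in the Dnmt1, Dnmt3b and Dnmt3a knockouts, so none among 5 lies near those shares. A silent gene could pass the filter on low counts through the knockout in which it was high.

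As background, many genes of the germ line carry a promoter rich in CpG dinucleotides that is methylated in the body soon after implantation and held silent from then on. Dnmt1 copies methylation onto newly made DNA strands, and Dnmt3a and Dnmt3b place methylation on unmethylated DNA. Several Tex genes act in germ cells, in chromosome pairing, recombination, control of transposons or the bridges between germ cells, whereas others serve tasks of all cells, such as membrane traffic and ribosome production.

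Transcripts were counted by droplet single-cell RNA-seq in embryos collected at E8.5, with 1 dissociated whole embryo per library by the labels. The study genotyped the embryos from tissue of the ectoplacental cone, which is extraembryonic. How much of that tissue entered each library is not given. There were 7 WT embryos, 3 labelled null for Dnmt1 (Dnmt1 KO), 4 for Dnmt3a and 4 for Dnmt3b, and all groups, WT included, were of the 129S4/SvJae strain background. The study bred the knockouts from crosses of heterozygous parents, so by design the gene was disrupted in every tissue, extraembryonic tissue included. For the Dnmt3b KO libraries the transcript levels given below do not show a loss. Unique molecular identifiers (UMIs, counts of single captured transcripts) were summed over the barcodes of a library that held at least 1500 UMIs, 128881 of 162336 barcodes, and scaled to counts per 1000000 UMIs (CPM). WT libraries held 38742721 to 253139975 UMIs in all, Dnmt1 KO libraries 88335409 to 138615554, Dnmt3a KO libraries 182039333 to 259050073 and Dnmt3b KO libraries 148677510 to 262580123.

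Some libraries stood apart. Dnmt3b KO 1 and 2 had 9149 cell barcodes in common, against at most 43 for any other of the 153 library pairs. They were thus summed and counted as 1 sample. Dnmt3b KO has n = 3 unless libraries were left out or are said to be kept separate. Dnmt3b KO 12 had the highest level in its group of each of the 10 called Tex genes and the only matrix made with Cell Ranger 5.0.0. All Dnmt1 KO (3) and Dnmt3a KO (4) libraries, 3 of the 4 Dnmt3b KO libraries and 1 of the 7 WT libraries showed a male level of Y-linked genes, so sex and knockout were largely confounded. The knockout library without it was Dnmt3b KO 12, and a joint human and mouse reference had been used for 4 libraries (Dnmt3b KO 11, WT 1, Dnmt3a KO 1 and 13). The Dnmt1 transcript lay between 14.9 and 15.6 CPM in Dnmt1 KO against 83.7 to 113.5 in WT, and the Dnmt3a transcript between 7.59 and 11.8 in Dnmt3a KO against 23.5 to 34.5. The Dnmt3b transcript was not lower in Dnmt3b KO, while Dnmt3a stood at 15.1 CPM in Dnmt3b KO 11 and at 7.65 in Dnmt3b KO 12, below all WT embryos, so Dnmt3b KO here means the libraries labelled so. Whole-embryo results are also given without these libraries, and class levels of Dnmt3b KO without Dnmt3b KO 12. Nothing in the labels ties libraries to litters, so p-values measure the spread between these embryos. In summed counts, fewer cells of a type and less RNA per cell cannot be told apart.

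The start of a gene is where methylation bears on it most directly. The 300 bases around the annotated start (250 before and 50 after, RefSeq, GRCm38.p6) are printed for 6 genes, each 5′ to 3′ on the strand of the gene, in lower case with every CpG in capitals. Tex30 is an example of the widely expressed genes and Tex37 of silent genes called in no knockout. Tex12, Tex19.1, Tex19.2 and Tex13b are examples of genes that rose in the knockouts. Tex30 held the most CpGs of the wide genes, whose median was 22. Tex37 held fewer than the median of 3 over the genes that were neither called nor wide.
Tex30, chr1:44102392-44102691, minus strand: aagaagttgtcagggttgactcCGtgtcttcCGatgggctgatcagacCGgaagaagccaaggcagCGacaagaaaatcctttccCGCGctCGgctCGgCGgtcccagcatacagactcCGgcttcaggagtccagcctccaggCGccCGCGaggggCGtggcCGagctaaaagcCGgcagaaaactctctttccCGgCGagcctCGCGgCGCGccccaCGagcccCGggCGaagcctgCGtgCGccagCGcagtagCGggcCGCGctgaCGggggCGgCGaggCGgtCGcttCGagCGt
Tex37, chr6:70918873-70919172, minus strand: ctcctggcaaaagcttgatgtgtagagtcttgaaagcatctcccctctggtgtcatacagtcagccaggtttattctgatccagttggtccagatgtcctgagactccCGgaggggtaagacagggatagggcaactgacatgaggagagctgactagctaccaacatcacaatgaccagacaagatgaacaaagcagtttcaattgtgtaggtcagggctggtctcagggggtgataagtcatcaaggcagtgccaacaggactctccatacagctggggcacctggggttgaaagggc
Tex12, chr9:50561219-50561518, minus strand: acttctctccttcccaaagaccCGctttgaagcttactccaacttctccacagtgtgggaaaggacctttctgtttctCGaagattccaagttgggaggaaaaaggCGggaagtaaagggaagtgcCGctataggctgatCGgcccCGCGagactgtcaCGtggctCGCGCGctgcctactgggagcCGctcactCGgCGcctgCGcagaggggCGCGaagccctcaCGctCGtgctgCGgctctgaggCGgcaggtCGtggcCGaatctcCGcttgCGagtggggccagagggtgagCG
Tex19.1, chr11:121145893-121146192, plus strand: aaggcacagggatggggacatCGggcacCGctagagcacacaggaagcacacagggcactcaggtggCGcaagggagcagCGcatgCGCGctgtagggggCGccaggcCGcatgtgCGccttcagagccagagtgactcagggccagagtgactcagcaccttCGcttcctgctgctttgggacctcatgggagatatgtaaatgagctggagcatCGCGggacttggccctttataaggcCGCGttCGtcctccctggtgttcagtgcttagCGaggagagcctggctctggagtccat
Tex19.2, chr11:121118628-121118927, minus strand: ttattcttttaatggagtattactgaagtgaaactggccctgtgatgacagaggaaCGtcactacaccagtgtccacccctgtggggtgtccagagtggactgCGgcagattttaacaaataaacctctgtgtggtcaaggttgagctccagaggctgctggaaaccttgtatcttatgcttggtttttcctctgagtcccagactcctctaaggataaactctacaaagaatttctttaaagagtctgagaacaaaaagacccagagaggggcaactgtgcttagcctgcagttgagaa
Tex13b, chrX:140813384-140813683, minus strand: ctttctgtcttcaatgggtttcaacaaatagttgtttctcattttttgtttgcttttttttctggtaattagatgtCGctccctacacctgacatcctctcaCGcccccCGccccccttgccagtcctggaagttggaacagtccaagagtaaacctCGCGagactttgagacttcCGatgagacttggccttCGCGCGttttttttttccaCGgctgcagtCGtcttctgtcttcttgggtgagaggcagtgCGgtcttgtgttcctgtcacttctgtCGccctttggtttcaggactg
The windows of Tex30 and Tex37 are the extremes of these 6, with 38 CpGs and 1 CpG. Tex12 held 26, Tex19.1 held 16 and Tex13b held 13, against a median of 7 over all 32851 windows of the reference. Tex19.2, the paralogue of Tex19.1 on the same chromosome, held 2.

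WT level was split into 3 classes: silent (a mean over the 7 WT embryos under 0.1 CPM), wide (a mean of at least 5 CPM, and at least 1 CPM in at least 80% of 20 cell classes) and intermediate (the rest). This split was made on the WT values and is a description. Of the 25 silent genes, 5 had 0 UMIs in all 7 WT embryos (Tex44, Tex13a, Tex13c2, Tex13c3 and Tex28), which in 1295941953 WT UMIs allows a level of up to 0.00231 CPM, counting error only. Tex44, Tex13a, Tex13c3 and Tex28 had 0 UMIs in every library of every group. Nearest to the limit of 0.1 CPM were Tex37 inside it (0.0979 ± 0.032 CPM, SD, n = 7) and Tex14 outside it (0.136 ± 0.0459). The mean of Tex37 was 0.178 CPM in Dnmt3b KO, with Dnmt3b KO 12 highest at 0.281, against 0.120 for Dnmt1 KO embryos and 0.1003 for those of Dnmt3a KO. It was not called (adjusted p = 0.202 in Dnmt3b KO, 0.464 in Dnmt1 KO). A limit of 0.05 CPM would leave 21 silent genes and one of 0.5 CPM would give 30, while the wide genes stayed 5 at a limit of 10 CPM, since the lowest of them, Tex264, lay at 17.9 ± 3.93 CPM and the highest gene outside, Tex15, at 4.32 ± 1.19. Of the 8 X-linked members 7 were silent and none was wide.

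**Figure D1:**
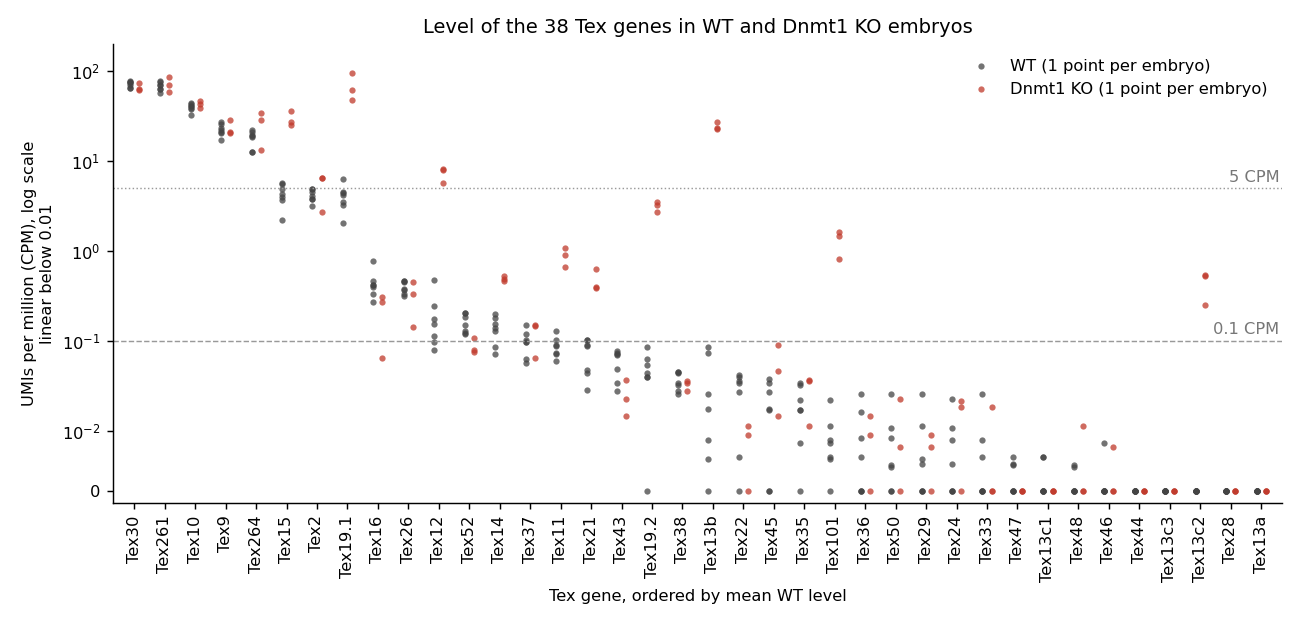
Level in CPM (vertical axis, logarithmic and linear near 0) of each of the 38 Tex genes (horizontal axis, ordered by WT mean), with 1 point per embryo for WT (grey) and Dnmt1 KO (red) and lines at the limits of 0.1 and 5 CPM. The 5 wide genes at the left overlap between the groups, while the Dnmt1 KO points of Tex13b, Tex12, Tex19.2 and Tex101 sit far above the WT points.

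Low counts limited which genes could be tested. The filter on low counts kept 21 of the 38 (8 silent, 8 intermediate and 5 wide) among 18870 genes. The 17 that were not tested were all silent, and none exceeded 0.0906 CPM in any library. A silent gene could pass this filter through the group in which it was high, so the counts below describe the genes tested and not the 25 silent genes. To be called higher or lower, a gene needed an adjusted p below 0.01 together with a log2 fold change of 1 or more in size.

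In Dnmt1 KO 10 of the 21 genes tested were called higher than in WT, where 8.19% of all genes tested were, and 0 were called lower, where 6.09% of all genes were. They were 6 of the 8 silent genes tested (Tex11, Tex13b, Tex13c2, Tex19.2, Tex21 and Tex101), 4 of the 8 intermediate genes (Tex12, Tex14, Tex15 and Tex19.1) and 0 of the 5 wide genes. In Dnmt3b KO 8 were called higher (all genes 1.83%) and 0 lower (0.0318%). Those 8 were the 10 above without Tex13c2 and Tex21. In Dnmt3a KO only Tex12 and Tex15 were called higher, 2 genes (all genes 0.196%), and 0 lower (0.0106%). At an unadjusted p under 0.05 the numbers, in either direction, were 13 of 21 in Dnmt1 KO (all genes 46.0%), 10 in Dnmt3b KO (17.9%) and 9 in Dnmt3a KO (9.41%). The median log2 fold change over the 21 genes was 0.58 in Dnmt1 KO, 0.26 in Dnmt3b KO and 0.05 in Dnmt3a KO, beside 0.01, -0.01 and 0.00 over all genes tested. The 3 comparisons share the WT embryos.

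Every embryo of a knockout lay above every WT embryo for 10 of the 21 genes in Dnmt1 KO (all genes 10.4%), for 8 in Dnmt3b KO (all genes 5.74%) and for 6 in Dnmt3a KO (all genes 2.07%). The 6 were Tex12, Tex13b, Tex14, Tex15, Tex19.1 and Tex19.2, of which Tex13b, Tex14, Tex19.1 and Tex19.2 were not called in Dnmt3a KO. Tex52 was the only member with all 3 Dnmt1 KO embryos below all WT embryos, at 0.0743 to 0.108 CPM against 0.118 to 0.204 (1 of 21 members, all genes 17.6%), and it was not called (log2 fold change -0.77 ± 0.35 SE, adjusted p = 0.0947).

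Tex12 (chr9:50556819-50561325, minus strand, GRCm38 as for all positions given) encodes a protein of the central element of the synaptonemal complex, which zips homologous chromosomes together. Its level in the 7 WT embryos ran from 0.079 to 0.473 CPM with a median of 0.155. The Dnmt1 KO embryos held 8.09, 7.91 and 5.76 CPM, the Dnmt3a KO embryos 1.17, 1.71, 2.22 and 2.50, and the Dnmt3b KO samples 3.05, 5.36 and 8.65. The knockouts did not overlap WT, and the Dnmt3a KO embryos lay below all others. The log2 fold change was 5.30 ± 0.42 (SE, adjusted p = 7.9e-08) in Dnmt1 KO, 4.84 ± 0.42 (1.0e-06) in Dnmt3b KO and 3.27 ± 0.39 (0.00033) in Dnmt3a KO. Tex12 was the gene with the firmest call in Dnmt3a KO, but the call was lost under 2 of 31 alternatives, with an adjusted p of up to 0.214. With the 14 libraries of the mouse-only reference alone its adjusted p there was 0.0143 at a log2 fold change of 3.27.

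Tex15 (chr8:33516738-33585582, plus strand) is needed for repair of meiotic DNA breaks and for silencing of transposons in male germ cells. It was not silent in WT, where it ran from 2.21 to 5.65 CPM with a median of 4.31. Its level was 24.997, 35.6 and 26.9 CPM in Dnmt1 KO, 8.87, 10.2, 7.82 and 10.7 in Dnmt3a KO, and 8.36, 7.38 and 11.6 in Dnmt3b KO. All knockout embryos lay above all WT embryos, and the Dnmt3a and Dnmt3b KO embryos overlapped each other. Its log2 fold change was 2.85 ± 0.20 (adjusted p = 1.3e-08) in Dnmt1 KO, while Dnmt3a KO gave 1.11 ± 0.18 (0.0071) and Dnmt3b KO 1.04 ± 0.20 (0.00423). The last pair lay close to both limits of the call. In Dnmt3a KO the call was lost under 13 of 31 alternatives, with an adjusted p of up to 0.447, among them leaving out any 1 of its 4 embryos (0.017 to 0.0387).

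Tex11 (chrX:100838648-101059667, minus strand) acts in chromosome pairing and crossover formation in meiosis. It ran from 0.0593 to 0.129 CPM in WT (median 0.0884), and stood at 0.911, 0.671 and 1.08 in Dnmt1 KO, 0.1004, 0.1703, 0.308 and 0.324 in Dnmt3a KO, and 1.19, 1.06 and 3.49 in Dnmt3b KO. It was the called gene whose fold change was largest in Dnmt3b KO relative to Dnmt1 KO: 4.41 ± 0.36 (adjusted p = 6.1e-07) against 3.44 ± 0.37 (2.1e-06) on the log2 scale. The difference between these groups was not called (-0.97 ± 0.42 for Dnmt1 KO against Dnmt3b KO, adjusted p = 0.0879). In Dnmt3a KO 3 of 4 embryos lay above all WT embryos, with a log2 fold change of 1.36 ± 0.36 that was not called (0.121).

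Tex14 (chr11:87405065-87555823, plus strand), a protein of the bridges that join dividing germ cells, and Tex101 (chr7:24668007-24676675, minus strand), a protein of the germ cell surface, changed at lower levels. Tex14 ran from 0.0707 to 0.197 CPM in WT (median 0.139), and stood at 0.483, 0.527 and 0.464 in Dnmt1 KO, 0.249, 0.291, 0.370 and 0.479 in Dnmt3a KO, and 0.493, 0.3999 and 1.12 in Dnmt3b KO. No knockout embryo overlapped WT, and the log2 fold change was 1.92 ± 0.33 (adjusted p = 0.000261) in Dnmt1 KO, 2.24 ± 0.32 (0.00026) in Dnmt3b KO and 1.31 ± 0.31 (0.0672, not called) in Dnmt3a KO. Tex101 had 13 UMIs in all WT libraries together, at 0 to 0.0221 CPM. It stood at 0.818, 1.63 and 1.45 CPM in Dnmt1 KO and at 0.118, 0.164 and 1.21 in Dnmt3b KO, and in Dnmt3a KO at 0.00873, 0.0769, 0.0452 and 0.0811, the lowest of which overlapped WT. Its log2 fold change was 7.03 ± 0.69 (8.3e-07) in Dnmt1 KO and 5.47 ± 0.70 (8.1e-05) in Dnmt3b KO.

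Tex19.1 (chr11:121146143-121148319, plus strand) and Tex19.2 (chr11:121116215-121118677, minus strand) are neighbouring paralogues. Tex19.1 restrains retrotransposons in germ cells and is also known from the placenta. Tex19.1 ran from 2.02 to 6.36 CPM in WT (median 4.16) and stood at 61.4, 94.5 and 47.3 in Dnmt1 KO, 9.64, 20.3, 20.5 and 17.7 in Dnmt3a KO, and 15.7, 24.5 and 96.6 in Dnmt3b KO. All knockout embryos lay above all WT embryos. Tex19.1 rose by 4.14 ± 0.42 on the log2 scale in Dnmt1 KO (adjusted p = 1.3e-06) and by 3.43 ± 0.42 in Dnmt3b KO (4.5e-05), and its change of 2.05 ± 0.39 in Dnmt3a KO was not called (0.0174). It passed there under 7 of 31 alternatives, among them the fit without Dnmt3b KO 12 (0.000726). That library is in neither group of the comparison, but all 4 groups were fitted together and share the estimate of the spread of a gene. The cause of the change was not tested.

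Tex19.2 was silent in WT, at 0 to 0.0845 CPM (median 0.0435), and stood at 3.23, 3.46 and 2.71 CPM in Dnmt1 KO. In Dnmt3a KO it lay at 0.122, 0.181, 0.288 and 0.282, and in Dnmt3b KO at 0.131, 0.297 and 6.83. Without Dnmt3b KO 12 the mean of the Dnmt3b KO samples was 0.214 CPM, against 0.218 in Dnmt3a KO. Tex19.2 had a log2 fold change of 5.99 ± 0.79 (adjusted p = 1.9e-05) in Dnmt1 KO, 5.46 ± 0.78 (0.00026) in Dnmt3b KO and 2.05 ± 0.78 (0.386, not called) in Dnmt3a KO. The pair shares some sequence: 50 of the 1870 stretches of 50 bases in the Tex19.1 transcripts, 2.67%, also occur in Tex19.2. They end 16 to 1605 bases from the 3′ end over the annotated Tex19.1 transcripts and 1004 bases or more from it in Tex19.2, and the share of reads assigned to the wrong gene was not tested.

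In the main fit the largest fold change in Dnmt1 KO was that of Tex13b (chrX:140808307-140813433, minus strand), a silent gene of the X-linked Tex13 family. Tex13c2 followed at 9.50 on the log2 scale. Over the alternatives Tex13c2 reached up to 17.1 and Tex13b up to 13.6, so the order was not fixed. WT embryos held 36 UMIs of Tex13b in all, at 0 to 0.0846 CPM (median 0.0177). It stood at 22.9, 23.2 and 27.5 CPM in the Dnmt1 KO embryos, with no overlap. In Dnmt3a KO it lay at 0.1004, 0.687, 0.214 and 0.0888 CPM, all above WT, and in Dnmt3b KO at 0.478, 0.274 and 17.3. The log2 fold change was 9.79 ± 1.12 (adjusted p = 4.3e-06) in Dnmt1 KO, 7.61 ± 1.09 (0.000262) in Dnmt3b KO and 3.19 ± 1.16 (0.345, not called) in Dnmt3a KO.

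Tex13c2 (chrX:42489691-42491524, plus strand), of the same family, had 0 UMIs in 7 WT and 4 Dnmt3a KO embryos. It stood at 0.530, 0.252 and 0.543 CPM in Dnmt1 KO (140 UMIs) and at 0.242 in Dnmt3b KO 12 (43 UMIs), with 0 UMIs in the other Dnmt3b KO libraries. Pooled over the libraries of a group, it was at least 181-fold higher in Dnmt1 KO than the level that 3 counts in all WT libraries would give. Tex13c2 was called in Dnmt1 KO (adjusted p = 0.00378), a call lost with DESeq2 or without Dnmt1 KO 1 or 2, and not called in Dnmt3b KO (0.153). Tex13a and Tex13c3 of this family stayed at 0 UMIs in every library, and Tex13c1 had 2 UMIs in WT, 1 in Dnmt3a KO and 0 elsewhere.

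Tex21 (chr12:76198686-76246746, minus strand) was, with Tex13c2, called against WT in Dnmt1 KO and in neither other knockout. It ran from 0.0282 to 0.103 CPM in WT (median 0.0887), 0.3996, 0.390 and 0.634 in Dnmt1 KO, 0.0306, 0.0385, 0.0205 and 0.0579 in Dnmt3a KO, and 0.0700, 0.0495 and 0.124 in Dnmt3b KO. Dnmt1 KO did not overlap the other groups, and Dnmt3a and Dnmt3b KO overlapped WT. The log2 fold change was 2.85 ± 0.36 (adjusted p = 1.1e-05) in Dnmt1 KO, while Dnmt3a KO gave -0.93 ± 0.40 (0.467) and Dnmt3b KO 0.15 ± 0.40 (0.884). The difference itself passed the test for Dnmt1 KO against Dnmt3a KO (3.78 ± 0.44, 9.4e-06) and against Dnmt3b KO (2.70 ± 0.45, 0.00043).

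**Figure D2:**
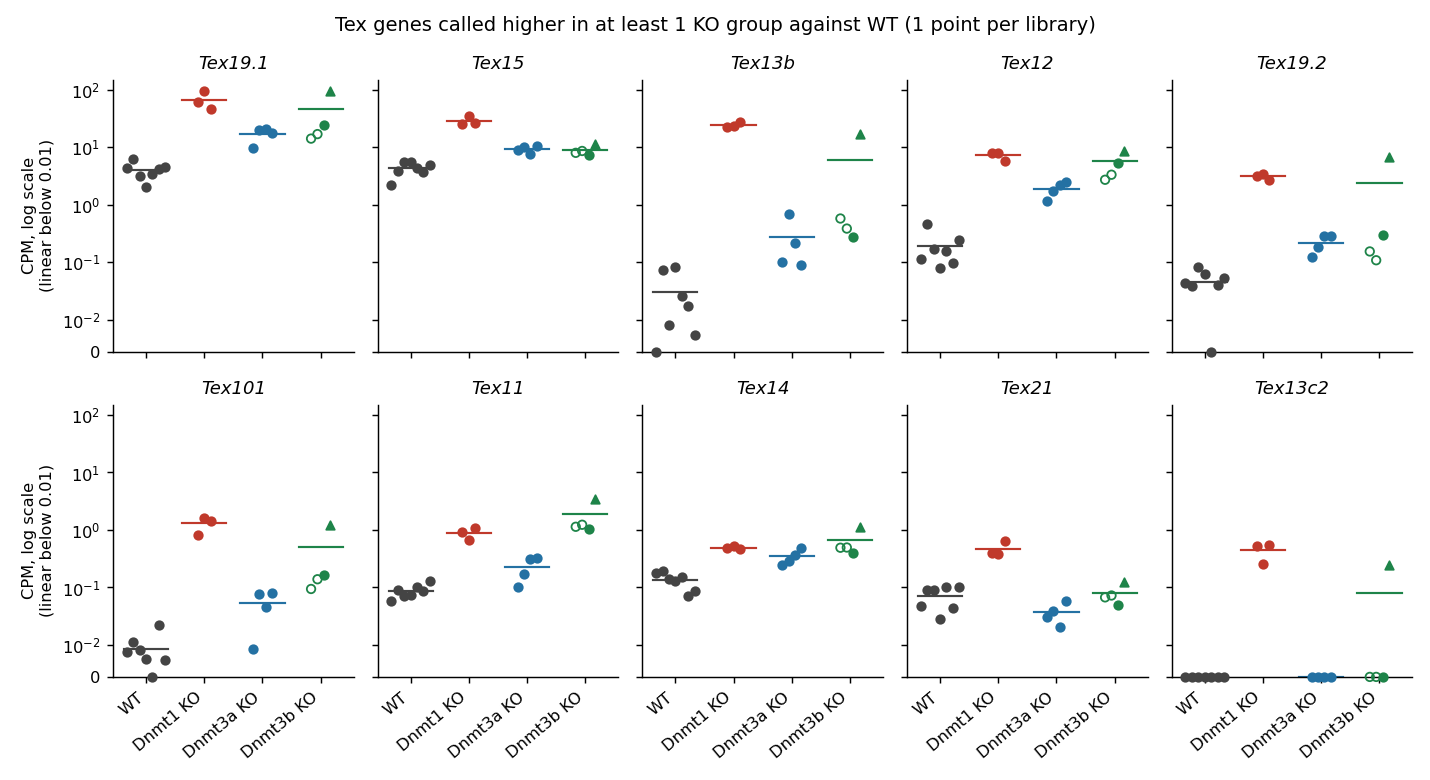
Levels of the 10 called Tex genes in CPM, 1 panel per gene, with 1 point per library in WT and the 3 knockouts and a bar at the group mean. Open circles are Dnmt3b KO 1 and 2, counted as 1 sample in that mean, and the triangle is Dnmt3b KO 12, which is the highest Dnmt3b KO point in every panel and reaches 17.3 CPM for Tex13b and 6.83 for Tex19.2.

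The 5 wide genes showed no such change. Tex30 (chr1:44086613-44102441, minus strand) ran from 64.8 to 78.4 CPM in WT (median 73.8), with 63.0, 73.7 and 61.3 in Dnmt1 KO, 79.5, 65.2, 80.7 and 74.9 in Dnmt3a KO, and 71.0, 81.5 and 89.7 in Dnmt3b KO. Tex261 (chr6:83768885-83775813, minus strand), which takes part in export from the endoplasmic reticulum, ran from 57.3 to 76.9 in WT (median 69.6), with 70.3, 86.6 and 57.8 in Dnmt1 KO, 76.8, 59.6, 71.6 and 74.0 in Dnmt3a KO, and 68.1, 75.6 and 91.2 in Dnmt3b KO. Every knockout overlapped WT for both genes. Tex10 (chr4:48430858-48473459, minus strand), a subunit of the PELP1 complex that serves ribosome production, ran from 32.1 to 44.3 CPM in WT (median 40.6), with 39.2, 46.8 and 43.6 in Dnmt1 KO, 35.1, 48.2, 31.3 and 46.3 in Dnmt3a KO, and 55.3, 34.1 and 37.3 in Dnmt3b KO. Tex9 (chr9:72450394-72492212, minus strand) ran from 17.0 to 27.3 in WT (median 22.1), with 20.7, 20.9 and 28.5 in Dnmt1 KO, 19.9, 22.7, 20.4 and 22.6 in Dnmt3a KO, and 24.3, 21.0 and 23.01 in Dnmt3b KO. These again overlapped in all groups. In Dnmt1 KO the log2 fold change was -0.04 ± 0.11 for Tex30, 0.16 ± 0.12 for Tex261, 0.22 ± 0.14 for Tex10 and 0.16 ± 0.12 for Tex9, with adjusted p from 0.224 to 0.81.

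Tex264 (chr9:106658746-106685927, minus strand), a receptor for the digestion of endoplasmic reticulum by autophagy, was the wide gene that came nearest to a call. It ran from 12.5 to 22.3 CPM in WT (median 19.0), with 34.2, 28.7 and 13.3 in Dnmt1 KO, 22.7, 22.5, 16.5 and 19.13 in Dnmt3a KO, and 19.7, 21.3 and 24.8 in Dnmt3b KO. Of the Dnmt1 KO embryos 2 lay above all WT embryos and 1 lay inside the WT range. The log2 fold change was 0.58 ± 0.22 (adjusted p = 0.0486, not called). The largest change of a wide gene in Dnmt3a or Dnmt3b KO was also that of Tex264, at 0.16 ± 0.20 and 0.26 ± 0.22.

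**Figure D3:**
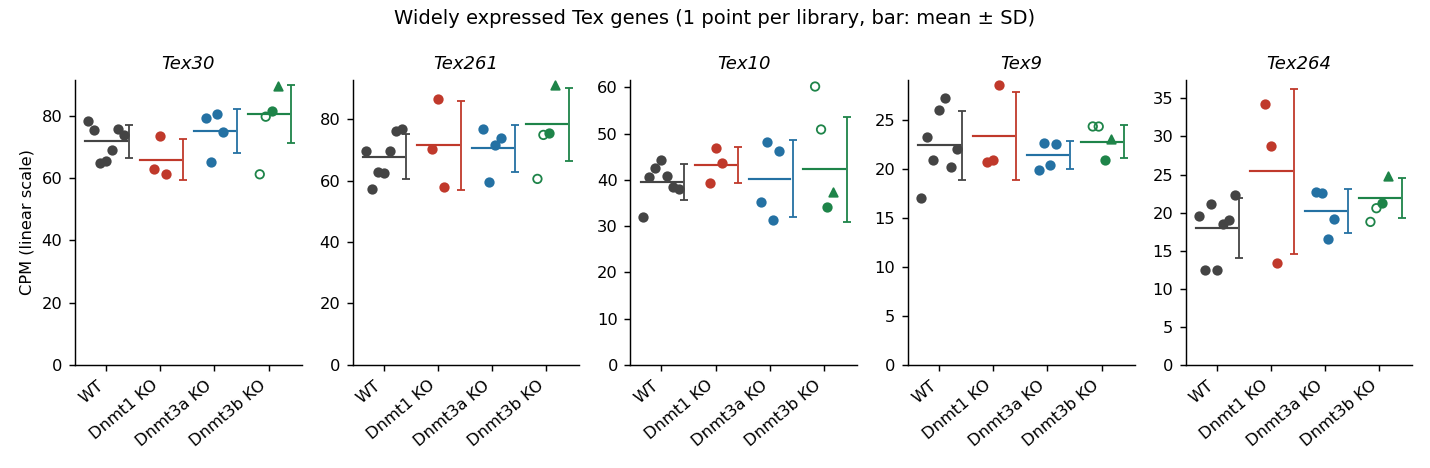
Levels of the 5 wide Tex genes in CPM on linear axes that start at 0, 1 panel per gene, with 1 point per library and the mean ± SD of each group. Open circles are Dnmt3b KO 1 and 2, counted as 1 sample, and triangles Dnmt3b KO 12. The 4 groups overlap in each panel, and the Dnmt1 KO points of Tex264 spread from 13.3 to 34.2 CPM.

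The knockouts were also set against each other. Dnmt1 KO exceeded Dnmt3a KO for 9 of the 21 genes (all genes 6.89%): the 10 called genes without Tex14. Dnmt1 KO exceeded Dnmt3b KO for 2, Tex15 (1.81 ± 0.25 on the log2 scale, adjusted p = 9.6e-05) and Tex21 (all genes 3.86%). This count of 2 became 7 without Dnmt3b KO 12 and 6 with the Y-linked share as a covariate. Y-linked genes stood at 0.0112 CPM in Dnmt3b KO 12 and at 91.8 to 106 CPM in the other Dnmt3b KO libraries. These alternatives are therefore not independent. Dnmt3b KO exceeded Dnmt3a KO for 1, Tex11 (3.05 ± 0.40, 0.0011, all genes 0.207%). No Tex gene was called lower in these 3 comparisons, and no wide gene was called. With the counting reference as a covariate, or with the mouse-only libraries alone, the count for Dnmt1 KO against Dnmt3a KO was 5 in place of 9.

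Dnmt3b KO 12 set much of the level of its group. Its CPM was 46.2 times the mean of the other Dnmt3b KO samples for Tex13b, 32.0 times for Tex19.2, 8.59 times for Tex101, 4.81 times for Tex19.1 and 3.11 times for Tex11. For Tex12 it was 2.06 times and for Tex15 1.47 times. Without this library 6 of the 8 genes were still called in Dnmt3b KO, and Tex13b (log2 fold change 3.67, adjusted p = 0.0107) and Tex15 (0.88, 0.0604) were not. The fold change of Tex19.2 then fell to 2.06 on the log2 scale from 5.46, that of Tex101 to 3.74 from 5.47 and that of Tex19.1 to 2.33 from 3.43, while those of Tex11 (3.70) and Tex12 (4.47) moved less. Without both Dnmt3b KO 11 and 12, which left 1 Dnmt3b KO sample whose spread was taken from the other groups, 2 genes were called: Tex11 (3.69, adjusted p = 6.3e-05) and Tex12 (3.89, 0.00047).

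Marker genes of other cells differed between the groups as well. The summed level of 8 markers of primordial germ cells ran from 44.4 to 65.1 CPM in WT embryos, 56.1 to 67.1 in Dnmt3a KO, 72.8 to 103.2 in Dnmt3b KO and 78.4 to 119.7 in Dnmt1 KO, with 7 or 8 of the 8 detected in each library. Ifitm3, which many cell types express, made up much of these sums, at 28.4 to 34.7 CPM in WT, 42.6 to 84.5 in Dnmt3b KO and 24.7 to 71.8 in Dnmt1 KO. Prdm14 and Nanos3, which define these cells, were at no more than 0.09 and 0.43 CPM in any library, whereas Dnd1 stood at 6.31 to 10.1 CPM in Dnmt1 KO against 0.679 to 1.45 in WT, and Tfap2c, also a trophoblast gene, at 11.46 to 71.1 against 2.78 to 5.76. Dppa3, Prdm1 and Kit overlapped between Dnmt1 KO and WT. That of 10 markers of extraembryonic (ExE) ectoderm, the trophoblast, ran from 91.4 to 139 CPM in WT, 118 to 135 in Dnmt3a KO, 141 to 294 in Dnmt3b KO and 237 to 718 in Dnmt1 KO. That of 8 epiblast markers ran from 53.3 to 160 CPM in WT, 61.2 to 92.7 in Dnmt3a KO, 86.9 to 104 in Dnmt3b KO and 218 to 289 in Dnmt1 KO. Without the ExE ectoderm-like cells the count in Dnmt1 KO against WT was still 10, with a log2 fold change of 3.83 for Tex19.1 and 2.67 for Tex15. No cluster of cells was named as primordial germ cells, and the part of the germ cell and epiblast markers in the results was not tested.

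Levels were then compared within cell classes rebuilt from marker genes, each named as cells like the type. A class entered with at least 25 cells in an embryo and at least 3 embryos of a group, which left 20 classes in WT, 19 in Dnmt3a KO and 18 in Dnmt3b KO, and 5 classes shared by WT and Dnmt1 KO. Between 9.17% and 42.9% of the cells of a Dnmt1 KO embryo fell in no named class, against 9.25% to 19.11% in WT. Within a class different clusters could hold most of the cells of a group. Of the ExE endoderm-like cells that entered the clustering 51.8% were in cluster 1 in WT and 69.4% in cluster 8 in Dnmt1 KO. Of the ExE mesoderm-like cells 44.0% were in cluster 19 in WT and 75.8% in cluster 22 in Dnmt1 KO. Gut endoderm-like cells were led by cluster 21 in both groups, with 38.4% of them in WT (242 of 630) and 87.4% in Dnmt1 KO (76 of 87). Endothelium-like cells were led by cluster 12 in both, but cluster 52 held 27.6% of them in Dnmt1 KO (67 of 243) and 0.64% in WT (4 of 625). Values of these 2 classes thus come from different mixes of clusters. Blood progenitor-like cells were all in cluster 32, with the immediate early genes Btg2 and Jun among its leading genes. In Dnmt3a KO ExE endoderm-like cells were led by cluster 0, and the 4 clusters of gut endoderm-like cells each held 23.3% to 25.7% of that class. In Dnmt3b KO these held 23.03% to 27.2%, and in both groups endothelium-like cells were led by cluster 14. These shares count cells, whereas class levels are sums of UMIs, to which shallow cells add little. The median depth of cells relative to their library was 0.184 in cluster 12 against 1.164 in cluster 14. It was 0.215 in cluster 0 against 1.946 in cluster 1. RNA free in the droplets was not removed.

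Tex19.1 had a steep gradient across WT classes. ExE endoderm-like cells held 20.3 ± 4.12 CPM (SD over embryos, n = 7), gut endoderm-like cells, next in order, 3.66 ± 2.8, and 15 of the 20 classes less than 1 CPM, down to 0.0681 in somitic mesoderm-like cells. ExE ectoderm-like cells, which passed the limit in 1 WT embryo only, held 183 CPM there. In Dnmt1 KO the same class, led by cluster 20 where WT was led by cluster 47, held 171 ± 15 CPM (n = 3), and Tex19.1 stood at 139 ± 22 in blood progenitor-like, 86.6 ± 2.7 in endothelium-like, 63.0 ± 7.6 in gut endoderm-like, 55.0 ± 10 in ExE endoderm-like and 37.1 ± 2.3 in ExE mesoderm-like cells. In all 5 shared classes the 3 Dnmt1 KO embryos lay above all WT embryos, and the class that was highest in WT among these was below 3 of the other 4 in Dnmt1 KO. In Dnmt3a KO ExE endoderm-like cells still led at 58.0 ± 17 CPM, followed by erythroid-like cells at 38.6 ± 19, which held 1.35 ± 1.0 in WT, and gut endoderm-like cells held 7.54 ± 2.4. Dnmt3b KO ranged from 16.1 in hindbrain and spinal cord-like to 107 in blood progenitor-like cells. Without Dnmt3b KO 12, which held 234 CPM in blood progenitor-like cells, the 2 samples left gave means from 4.87 in hindbrain and spinal cord-like to 45.6 in ExE endoderm-like cells, with blood progenitor-like cells next at 43.3.

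Tex15 differed from Tex19.1 in where it was high. In WT it led in forebrain and midbrain-like cells (11.8 ± 2.63 CPM) and gut endoderm-like cells (10.3 ± 3.2) and was lowest in erythroid-like cells (0.645). In Dnmt1 KO gut endoderm-like cells, mostly of cluster 21, held 97.2 ± 24 CPM of Tex15, with 70 as the lowest embryo, and the other 4 shared classes lay near 20 (18.7 ± 8.9 in blood progenitor-like and 19.7 in endothelium-like cells). The ratio of Tex15 to Tex19.1 in the same 3 embryos was therefore above 1 in gut endoderm-like cells and below 1 in blood progenitor-like cells, 2 classes of the same libraries. In Dnmt3a KO the highest level of Tex15 was in allantois-like cells, at 21.8 ± 3.3 CPM against 8.64 ± 2.5 in WT, and forebrain and midbrain-like cells overlapped WT at 11.1 ± 2.8.

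Tex12 and Tex13b were low in every WT class and rose in all 5 classes of Dnmt1 KO. Tex12 was under 1 CPM in all 20 WT classes, with the highest mean in ExE endoderm-like cells (0.775 ± 0.45), and in Dnmt1 KO it was 10.3 ± 0.75 there and 7.40 ± 1.4 in blood progenitor-like cells, where WT had 0 UMIs. Tex13b had 0 UMIs in 15 of the 20 WT classes. In Dnmt1 KO it ran from 9.20 ± 0.55 CPM in ExE endoderm-like cells to 42.8 ± 7.2 in gut endoderm-like and 47.6 ± 14 in blood progenitor-like cells. In Dnmt3a KO it had 0 UMIs in 10 of 19 classes. Neither gene was confined to a class in Dnmt1 KO, and ExE endoderm-like cells had the highest Tex12 and the lowest Tex13b of the 5.

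**Figure D4:**
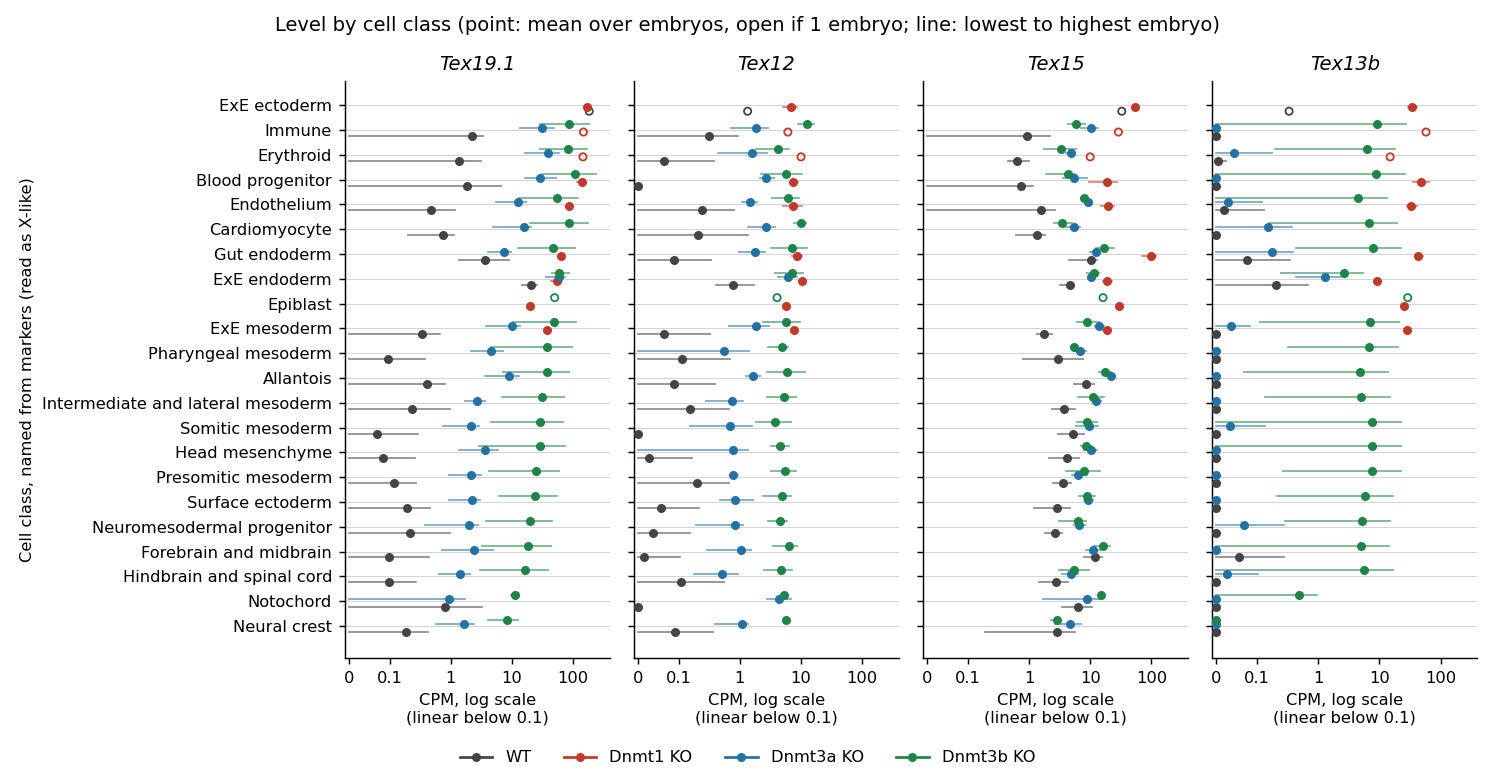
Mean level of Tex19.1, Tex12, Tex15 and Tex13b in CPM in each cell class (rows) and group (colours), with a line from the lowest to the highest embryo and an open point where 1 embryo only passed, on an axis that is logarithmic and linear below 0.1. Classes with 2 embryos are drawn as well. Tex19.1 covers from 0.0681 to 20.3 CPM over the WT classes of at least 3 embryos, and in Dnmt1 KO the gut endoderm-like class stands out for Tex15 at 97.2 CPM.

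Over all pairs of a tested Tex gene and a class, every Dnmt1 KO embryo lay above every WT embryo in 36 of 79 pairs, 45.6% (all genes 10.4%), and below in 7, 8.86% (all genes 14.2%). In Dnmt3b KO it was above in 88 of 284 pairs, 31.0% (all genes 3.25%), and in Dnmt3a KO in 49 of 253, 19.4% (all genes 1.18%). Pairs of 1 embryo share its library, so they are not independent. A pair needed 10 UMIs over its WT and knockout embryos together. A silent gene could thus enter through the knockout in which it was high, and the shares are a description. Tex19.1 was above WT in 16 of 19 classes in Dnmt3a KO, Tex12 in 14 and Tex15 in 12, and no other gene in more than 3. In Dnmt3b KO Tex19.1 and Tex12 were above WT in all 18 classes, Tex11 in 14, Tex15 in 11 and Tex13b in 10. Without Dnmt3b KO 12 and over the same classes, 75 of 242 pairs were above (31.0%, all genes 4.45%), an alternative chosen after seeing the data. It rests on fewer pairs and on 2 Dnmt3b KO samples per class, so the shares are not directly comparable. Tex19.1 and Tex12 were then again above WT in 18 classes and Tex15 in 11, with Tex11 in 12 and Tex13b in 2. For Tex11 the Dnmt3b KO mean reached 3.99 ± 2.48 CPM in gut endoderm-like cells (2.56 without Dnmt3b KO 12) against 0.132 ± 0.145 in WT, while the WT level was highest in presomitic mesoderm-like cells at 0.502 ± 0.182.

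The wide genes had a class pattern of their own. Over the 20 WT classes Tex30 spanned 2.71-fold (44.8 CPM in notochord-like to 122 in immune-like cells), Tex261 1.74-fold and Tex10 2.07-fold. Tex9 spanned 17.3-fold, from 2.51 CPM in ExE endoderm-like to 43.3 ± 4.20 in forebrain and midbrain-like cells. Tex264 spanned 41.3-fold in the opposite sense, from 1.95 CPM in neuromesodermal progenitor-like cells to 80.6 ± 7.67 in ExE endoderm-like cells. The intermediate genes Tex2 (20 of 20 classes) and Tex15 (17 of 20) also passed 1 CPM in most classes and were kept out of the wide group by their mean level alone. Tex2, which acts in lipid transfer at the endoplasmic reticulum, was likewise highest in ExE endoderm-like cells at 14.999 ± 1.07 CPM, and next in ExE mesoderm-like cells at 4.81.

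Within classes, of the 25 pairs of a wide gene and a class in Dnmt1 KO, 4 (16%) lay above all WT embryos and 5 (20%) below, near the shares over all genes (10.4% and 14.2%). Tex9 lay above all WT embryos in 3 classes, with 23.7 ± 1.87 CPM in ExE mesoderm-like cells against 13.7 ± 2.01 and 17.1 ± 2.09 in endothelium-like cells against 10.1 ± 1.24. Tex264 lay below all WT embryos in 2, with 14.5 ± 3.32 CPM in ExE mesoderm-like cells against 22.9 ± 3.69 and 4.66 ± 1.18 in endothelium-like cells against 9.42 ± 2.06. In ExE endoderm-like cells Tex264 overlapped WT, at 70.1 ± 4.95 against 80.6 ± 7.67 CPM. Its whole-embryo mean in Dnmt1 KO was above that of WT, while no shared class lay above WT. Tex30 lay below WT in 2 classes and Tex261 in 1, and Tex10 lay above WT in 1. The part of the different cluster mixes in these class values was not tested.

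Germline genes, of which only some are partners of a Tex protein, and partners of Tex10 were taken from 2 further lists. These were chosen with results of these data known. Of 19 germline genes listed (meiosis, piRNA pathway, germ cell RNA proteins and the Tex19.1 partner Ubr2), 16 were tested, of which 12 were called higher in Dnmt1 KO (all genes 8.19%), 11 in Dnmt3b KO (1.83%) and 4 in Dnmt3a KO (0.196%), and 0 lower in any. Since the list was chosen with the results known, these counts are no independent support. Of the 6 Sycp and Syce genes listed, which belong to the synaptonemal complex, 5 were called in Dnmt1 KO. Sycp1, a transverse filament protein, rose by 6.70 on the log2 scale, Sycp2 by 5.47, Syce1 by 5.13, Syce3 by 5.34 and Sycp3 by 2.50. The other, Syce2, the direct partner of Tex12, had a log2 fold change of 0.52 and was not called because of its size (adjusted p = 0.0002). Ubr2 had a log2 fold change of 0.59 and Spo11, the enzyme that cuts DNA in meiosis, one of -0.58, neither called. The 4 genes called in Dnmt3a KO were Hormad1 (2.82), Stk31 (3.03), Syce1 (2.79) and Ddx4 (1.83). Of the Dnmt1 KO calls Dnmt3l was the only 1 not called in Dnmt3b KO (0.77, adjusted p = 0.56). The 5 partners of Tex10 (Pelp1, Wdr18, Senp3, Las1l and Nol9) were all tested, and 0 were called in any comparison of a knockout with WT, with a median log2 fold change of -0.05, -0.08 and -0.04 in Dnmt1, Dnmt3b and Dnmt3a KO.

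The promoter windows differed between the groups of Tex genes. Of the 38 genes 31 had a window in the RefSeq table. The 5 wide genes held 17 to 38 CpGs with a median of 22, and the 7 called genes with a window held 2 to 26 with a median of 16. The other 19 held 0 to 41 with a median of 3, and 17 of them lay below the median of 7 over all windows. The called and the wide genes thus overlapped in CpG count. Apart from Tex2 the other genes lay below all wide genes, within the range of the called genes or below it. No test was made, since the called genes were chosen on their expression. The exceptions were Tex19.2 with 2 CpGs and Tex21 with 6 among the called genes, and Tex2 with 41 and Tex26 with 15 among the others, both of which were expressed in WT, at 4.15 and 0.396 CPM.

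**Figure D5:**
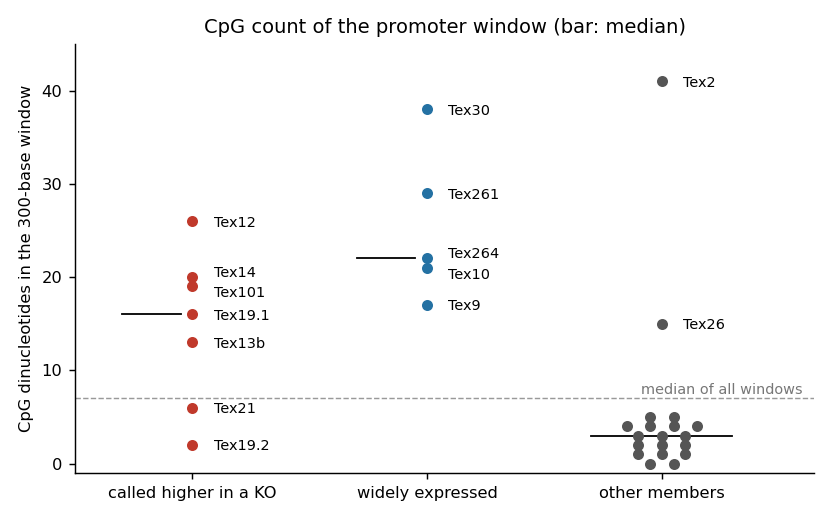
Number of CpG dinucleotides in the 300 bases around the start of 31 Tex genes, 1 point per gene, for the 7 genes called higher in a knockout, the 5 wide genes and the 19 others, with a bar at each median (16, 22 and 3) and a dashed line at the median of 7 over all 32851 windows. Tex19.2 and Tex21 lie below that line among the called genes.

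A pair of short motifs was searched on both strands. TCCCGC, the core of sites of the E2F family, occurred in 19.98% of all windows, in 3 of the 7 called genes (Tex12, Tex14 and Tex19.1), in 4 of the 5 wide genes and in 2 of the 19 others. CACGTG, the E-box, occurred in 7.15% of all windows and in Tex12, Tex10 and Tex36. TCCCGC itself contains a CpG, so its count rises with that of CpGs. Methylation was not measured in these samples.

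A few values are uncertain for reasons of annotation. Exons of Tex30, Tex16 and Tex52 overlap exons of another gene on the same strand, Gm29247, Gm45194 and Foxm1 with Gm44596, so reads there could be assigned to either or dropped. Exons of Tex10 and Tex9 overlap Invs and Mns1 on the opposite strand.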

How the data were processed

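Droplet 3′ single-cell RNA-seq was measured in 18 libraries, labelled as 1 embryo each, deposited as 54 matrix, gene and barcode files. The authors aligned reads to mm10 with Cell Ranger and deposited UMI counts per gene and barcode with no normalization. Their methods name version 5.0.0, which among the matrix headers only that of Dnmt3b KO 12 gave. The other 17 matrices were taken as made with 3.1.0, and 4 matrices used a joint human and mouse reference. Here barcodes of at least 1500 mouse UMIs were kept and counts were summed per library, with Dnmt3b KO 1 and 2 summed as 1 sample. Whole-embryo sums held all such barcodes and no doublets were removed from them, so cells of every kind enter by their share. A UMI marks the 3′ end of a transcript, and CPM was not scaled by length.

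Differences were tested with edgeR 4.0.16 (filterByExpr, TMM, quasi-likelihood fit of all 4 groups together) in R 4.3.3, with p-values adjusted by the Benjamini-Hochberg method over all 18870 genes tested. A call needed an adjusted p under 0.01 and an absolute log2 fold change of at least 1. The SE of a fold change is its absolute value divided by the square root of the F statistic of the test. It thus restates the test and is no separate measure of spread. Fold changes of genes at 0 counts depend on the prior count, so for Tex13c2 a bound against 3 counts over the WT libraries was given. The steps were tested on simulated data.

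For cell classes, the cell filters of the study were followed (up to 30% mitochondrial and 35% ribosomal counts) and likely doublets, 0.8% per 1000 barcodes, were removed. Cells were clustered with scanpy 1.11.5 (1500 cells per embryo, 2500 variable genes, 50 components, Leiden resolution 2) and clusters named from marker lists: 45 of 54 clusters received a name. A gene and class pair needed 10 UMIs. The names were rebuilt here and may differ from those of the study.

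Genes called in a knockout against WT and all wide genes were described by their value in every knockout sample and by the lowest, median and highest of the 7 WT embryos, and the others by range and count. The members, the marker lists and the lists of germline genes and Tex10 partners were chosen with earlier results of these data known. Alternatives were the cell filters of the study with and without ExE ectoderm-like cells, no filter on low counts, RLE scaling, DESeq2 1.42.0, thinned counts, covariates for counting reference and Y-linked share, subsets of libraries, a replicate block and leaving out each replicate.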

Additional observations from a re-analysis of the deposited data

Results flagged for a closer look

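In WT embryo 2 Tex12 stood at 0.473 CPM, with the nearest of the other 6 WT embryos at 0.242, a gap large for the range of the group by Dixon's test. It was the only flag among 28 gene and group combinations over 15 members, and chance flags about 1 in 20. Only WT and Dnmt3a KO were checked. Dnmt1 KO and Dnmt3b KO, with n = 3 each, were not, so the high values of Dnmt3b KO 12 were outside this check. WT 2 was also the only WT library with a male level of Y-linked genes, the only one with at least 25 ExE ectoderm-like cells and the one with the lowest median depth per cell (4845 UMIs), and the part of these in its Tex12 level was not tested.

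Differences between knockouts that passed the test itself are listed for a closer look, each as the difference of their log2 fold changes against WT. Dnmt1 KO exceeded Dnmt3a KO by 9.50 for Tex13c2 (Dnmt3a KO at 0 UMIs, so this value depends on the prior count), 6.61 for Tex13b, 4.74 for Tex101, 3.94 for Tex19.2, 3.78 for Tex21, 2.09 for Tex19.1, 2.07 for Tex11, 2.04 for Tex12 and 1.74 for Tex15. Dnmt1 KO exceeded Dnmt3b KO by 2.70 for Tex21 and 1.81 for Tex15. Dnmt3b KO exceeded Dnmt3a KO by 3.05 for Tex11, the only member called in that comparison. Of these 12 differences 5 passed under all alternatives run. The 3 Dnmt1 KO embryos and the 4 Dnmt3a KO embryos were all male by Y-linked genes.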

How the results depend on the processing

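Counts of Tex genes called lower were 0 under every alternative run. For Dnmt1 KO against WT the count of 10 ranged from 9 to 10 over all alternatives, replicates left out included. For Dnmt3a KO against WT, 2 became 4 with DESeq2, 1 with thinned counts, 3 without the filter on low counts, without ExE ectoderm-like cells, with the Y-linked covariate or without Dnmt3b KO 1 and 2, 0 with mouse-only reference libraries, 4 without Dnmt3b KO 11 and 12 and 1 to 4 with replicates left out. For Dnmt3b KO against WT, 8 became 2 without Dnmt3b KO 11 and 12 and 6 to 8 with replicates left out (6 without Dnmt3b KO 12). For Dnmt1 KO against Dnmt3a KO, 9 became 5 with the reference covariate, 5 with mouse-only libraries and 7 to 9 with replicates left out. For Dnmt1 KO against Dnmt3b KO, 2 became 6 with the Y-linked covariate, 5 without Dnmt3b KO 11 and 12 and 2 to 7 with replicates left out (7 without Dnmt3b KO 12). For Dnmt3b KO against Dnmt3a KO, 1 became 2 with DESeq2, 0 with mouse-only libraries, 3 without Dnmt3b KO 1 and 2, 0 without Dnmt3b KO 11 and 12 and stayed 1 with replicates left out. The cause was not tested, beyond the smaller number of samples where libraries were left out. Within Dnmt3b KO the Y-linked share set Dnmt3b KO 12 apart, so that covariate and leaving this library out are not independent alternatives.

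Whether the replicate numbers pair the samples was not settled. Deviations of same-numbered samples correlated above 0.1 in 5 of 13 pairs, with r from -0.39 to 0.44. Samples of different numbers were not compared, so these values cannot decide it. The replicate block left 4 residual degrees of freedom and kept Dnmt3b KO 1 and 2, which share most barcodes, as separate samples. A library whose number occurs once adds nothing to such a comparison. Dnmt3a KO and Dnmt3b KO thus each rested on their libraries 1 and 2. The counts were 10, 0 and 1 for Dnmt1, Dnmt3a and Dnmt3b KO against WT. Between knockouts they were 7 for Dnmt1 KO against Dnmt3a KO, 6 for Dnmt1 KO against Dnmt3b KO and 0 for Dnmt3b KO against Dnmt3a KO.

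Over single genes 2694 values stayed on their side of the threshold, 63 lost a call and 33 gained one. Of 992 values of called changes 0 changed sign, while 98 of 1798 values of changes not called did, among them Dnmt3b KO against Dnmt3a KO without Dnmt3b KO 11 and 12, for Tex19.2 (3.41 to -0.81) and Tex19.1 (1.39 to -0.20). Of the 10 calls in Dnmt1 KO 9 passed under all 31 alternatives, of the 8 in Dnmt3b KO 1 (Tex11) did, and of the 2 in Dnmt3a KO 0 did. Between knockouts, 4 of the 9 calls for Dnmt1 KO against Dnmt3a KO passed under all 31 (Tex11, Tex13b, Tex21 and Tex101), while Tex13c2 was lost under 13, Tex19.1 under 6, Tex12 and Tex19.2 under 2 each and Tex15 under 1. Tex15 passed under all for Dnmt1 KO against Dnmt3b KO and Tex21 was lost under 1, and Tex11 for Dnmt3b KO against Dnmt3a KO was lost under 3. The 88 of 284 gene and class pairs of Dnmt3b KO above WT became 75 of 242 without Dnmt3b KO 12, on fewer samples. The 17 silent genes that were not tested had too few counts for a test.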

Other observations

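The intermediate genes that were not called had class patterns of their own in WT. Tex16 was highest in neural crest-like cells at 1.09 ± 0.537 CPM (SD over embryos) and Tex26 in allantois-like cells at 1.19 ± 0.625, close to 1 CPM and far below the wide genes. In Dnmt1 KO Tex2 lay below every WT embryo in ExE endoderm-like cells, at 12.1 ± 0.79 CPM against 14.999 ± 1.07, and in ExE mesoderm-like cells, at 2.07 ± 0.19 against 4.81 ± 1.02, classes led by different clusters in the groups, while its whole-embryo level was not called (log2 fold change 0.42 ± 0.20, adjusted p = 0.11). Tex101 reached its highest class level of Dnmt1 KO in ExE ectoderm-like cells, at 4.14 ± 0.783 CPM, and Tex19.2 in blood progenitor-like cells, at 15.1 ± 3.68.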
